A study of Homo sapiens with 4 samples.

Results

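The entries described here are rows of a transcript assembly to which no gene name was attached: each carries an identifier of the MSTRG form, which the assembler StringTie gives to a locus it builds from reads, and an empty name. All such rows were taken, which gave 2095 entries out of 64873, beside 33182 assembled entries with a name and 29596 entries with an Ensembl identifier. Values were compared between conditions for the 1297 unnamed entries (61.9%) that reached a count of at least 20 in 2 or more libraries. The libraries were made from K562-U2AF1_S34F cells, that is K562, an established human erythroleukemia cell line, overexpressing the S34F mutant of the splicing factor U2AF1. There were 2 libraries from cells given DMSO, the solvent, and 2 from cells treated with SF1-8 at 30 uM for 48 h, a compound made against the U2AF homology motif of splicing factors. All 4 libraries carried the overexpressed mutant, so no library of parental K562 enters, and the promoter behind the transgene and the number of clones are not given in the sources used here. The study asked how SF1-8 altered genes and transcripts in these cells.

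An assembler turns overlapping reads into transcripts, and compares them with an annotation to attach names. Reads that fall outside the annotation, or on small RNA genes the annotation lacks, remain as entries with an identifier alone. The direction of a transcript is usually read from the splice signals at its introns unless the library itself keeps strand, so that a stretch of reads without an intron can be left without a strand. Such entries can come from RNA started in the reverse direction at a promoter, from RNA that runs past the end of a gene, from retained introns, or from genes that other annotations name.

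The smallest total count was 45522905, for DMSO 1, and the others held 64305922 to 67554610, of which 10.99% to 14.04% lay on ribosomal RNA entries. That library also stood apart from the other libraries in the unnamed entries, as described below, so results that rest on it are also given without it. The 12 genes of an erythroleukemia marker list, which fall in 9 entries because globin genes share entries, all had a mean above 1 FPKM, whereas 1 of 7 markers of other blood cells did. Of 4 epithelial markers 3 passed this level, with a sum of 62.7 to 73.3 FPKM, and of 2 endothelial markers 1 did. Stromal markers passed this level for 2 of 6 genes, and their summed FPKM was 4.64 to 9.79 in the DMSO libraries and 0.558 to 2.27 in the SF1-8 libraries. The part of these markers in the results below was not tested. U2AF1 itself was at 11.4 and 11.5 FPKM in the DMSO libraries and at 11.86 and 12.02 FPKM in the SF1-8 libraries. Nothing in the labels says that the 2 libraries of a group came from separate cultures, so p-values measure the spread between these libraries, which may be technical.

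Some unnamed entries reached into the promoters of annotated genes. Against the RefSeq promoter windows of GRCh38.p14, each 300 bases from 250 before to 50 after a gene start, 67 of the 2095 entries overlapped 79 of 35116 windows, and 55 of the 67 were among the compared entries. Windows of protein-coding genes were met by 46 entries, of which 14 lay on the opposite strand to the gene, 18 on its strand and 14 had no strand. The windows below are those met over at least 100 bases by the 4 compared entries with the highest mean count, with the window of GATA1, the erythroid transcription factor, because K562 is an erythroleukemia line. They were chosen after values had been seen, and are shown because they place an unnamed entry against a known gene start, with the bases inside the entry in capitals and the strand that of the gene.
ZNF496, chr1:247331818-247332117, minus strand, entry MSTRG.4507: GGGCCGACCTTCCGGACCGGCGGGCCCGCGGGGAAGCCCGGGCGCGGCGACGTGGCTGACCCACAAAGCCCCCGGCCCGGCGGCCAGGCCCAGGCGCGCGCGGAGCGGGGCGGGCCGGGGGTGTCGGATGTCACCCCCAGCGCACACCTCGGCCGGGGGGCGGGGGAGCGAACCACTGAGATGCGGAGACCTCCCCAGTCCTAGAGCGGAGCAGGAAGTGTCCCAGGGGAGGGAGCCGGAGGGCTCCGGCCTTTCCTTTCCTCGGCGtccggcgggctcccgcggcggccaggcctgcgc
LOC105378109, chr6:164300543-164300842, minus strand, entry MSTRG.30730: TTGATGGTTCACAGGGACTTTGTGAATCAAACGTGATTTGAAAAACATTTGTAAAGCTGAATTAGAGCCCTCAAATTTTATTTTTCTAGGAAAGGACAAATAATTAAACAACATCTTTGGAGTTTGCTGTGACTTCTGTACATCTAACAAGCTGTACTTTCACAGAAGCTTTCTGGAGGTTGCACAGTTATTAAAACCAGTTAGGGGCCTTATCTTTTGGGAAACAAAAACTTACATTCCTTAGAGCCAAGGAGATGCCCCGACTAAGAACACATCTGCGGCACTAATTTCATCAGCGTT
GNB1L, chr22:19854825-19855124, minus strand, entry MSTRG.23135: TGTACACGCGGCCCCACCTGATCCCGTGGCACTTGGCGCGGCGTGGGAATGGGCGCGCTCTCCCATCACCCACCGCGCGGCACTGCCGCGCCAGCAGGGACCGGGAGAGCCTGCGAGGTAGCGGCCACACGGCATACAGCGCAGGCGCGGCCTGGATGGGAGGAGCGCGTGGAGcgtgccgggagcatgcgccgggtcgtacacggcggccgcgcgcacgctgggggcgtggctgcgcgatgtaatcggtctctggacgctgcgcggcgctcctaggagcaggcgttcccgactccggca
RNH1, chr11:507193-507492, minus strand, entry MSTRG.5921: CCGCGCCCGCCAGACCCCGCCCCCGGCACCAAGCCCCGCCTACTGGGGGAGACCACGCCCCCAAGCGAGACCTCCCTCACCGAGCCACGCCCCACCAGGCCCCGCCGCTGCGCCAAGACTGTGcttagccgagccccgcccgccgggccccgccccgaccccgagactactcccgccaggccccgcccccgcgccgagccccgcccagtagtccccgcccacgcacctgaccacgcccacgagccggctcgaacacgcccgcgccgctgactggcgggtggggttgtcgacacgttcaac
GATA1, chrX:48786340-48786639, plus strand, entry MSTRG.323: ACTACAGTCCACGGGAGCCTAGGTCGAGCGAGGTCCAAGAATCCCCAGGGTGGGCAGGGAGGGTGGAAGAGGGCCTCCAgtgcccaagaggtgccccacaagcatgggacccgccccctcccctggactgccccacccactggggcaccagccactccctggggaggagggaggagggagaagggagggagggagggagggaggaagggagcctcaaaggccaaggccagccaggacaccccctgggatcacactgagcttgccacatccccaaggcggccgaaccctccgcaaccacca

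The first of these, MSTRG.4507, lay on the plus strand, opposite to the zinc finger gene ZNF496, covered 267 bases of its window and ran for 3254 bases beyond it. RefSeq places a divergent transcript, ZNF496-DT, there. Its CPM, the count scaled by the total count of its library, was 37.1 and 32.9 in the DMSO libraries and 38.6 and 35.4 in the SF1-8 libraries, so that the groups overlapped. MSTRG.23135 was likewise on the strand opposite to GNB1L, which encodes a WD-repeat protein, with 15.2 and 11.8 CPM in DMSO and 11.8 and 13.4 CPM in SF1-8. MSTRG.5921, on the same strand as the ribonuclease inhibitor gene RNH1, covered 3885 bases running upstream of its start, with 10.4 and 12.8 CPM in DMSO and 10.6 and 9.78 CPM in SF1-8. In MSTRG.30730 the window of LOC105378109 lay wholly inside the entry, which spanned 47148 bases, and levels were 23.1 and 24.0 CPM in DMSO and 22.5 and 22.7 CPM in SF1-8. For these entries the difference between conditions was small beside the spread within a group or did not pass the test.

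Upstream of GATA1, MSTRG.323 ended inside the promoter window and covered 79 of its bases. It measured 1.25 and 0.93 CPM in the DMSO libraries and 0.548 and 0.575 CPM in the SF1-8 libraries. Both SF1-8 values lay below both DMSO values, with a log2 fold change (SF1-8 over DMSO) of -0.95 ± 0.41 (SE), an unadjusted p of 0.0644 and an adjusted p of 0.998 by edgeR's quasi-likelihood test.

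The overlapped windows were rich in G and C, with a median of 67.7% against 58.7% over all windows, and with a median of 31 CG pairs against 14. The letters GGGCGG, the core of a GC box, were present on either strand in 52 of 79 windows (65.8%) against 44.9% of all 35116. TATAAA was present in 4 (5.06%) against 11.5%, and CCAAT in 23 (29.1%) against 34.6%. Letters in a window describe its sequence and identify no bound factor.

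Most unnamed entries were short and had no strand. Their genomic span ran from 200 to 355766 bases with a median of 351, and 835 of them were under 300 bases, whereas the median span of assembled entries with a name was 3270 bases. No strand was given for 1787 of the 2095 (85.3%), compared with 4371 of the 33182 named assembled entries (13.2%). The remaining entries were 173 on the plus and 135 on the minus strand, with a median span of 2539 bases against 323 for those without strand. A single transcript made up 2070 of the 2095 entries. The exonic length that follows from count and FPKM lay under 90% of the span in 125 of 305 entries with strand and in 0 of 1628 without. For single-transcript entries with strand this length was under that share in 101 of 280. Its scale was set in each library on single-transcript entries without strand, taken to be exonic over their whole span. The 0 is thus no independent sign that such entries lack introns, although 100% of those used for the scale lay within 2% of it.

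**Figure D1:**
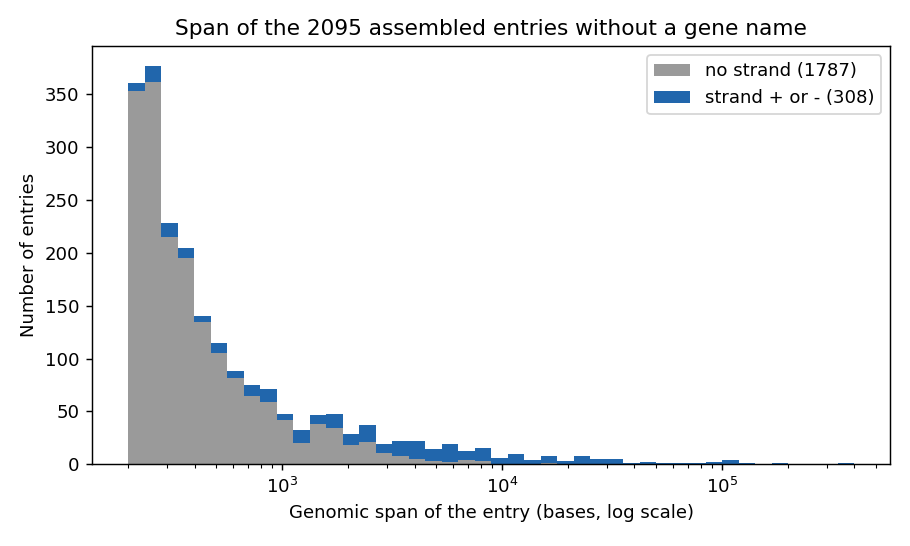
Histogram of genomic span (bases, log scale) for the 2095 assembled entries without a gene name, stacked by whether a strand was given. Entries without strand crowd near 200 to 500 bases, and most entries over 5000 bases have a strand.

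The 3 longest entries differed in estimated exonic length, and MSTRG.32453, the second, with 22.6% of 178704 bases, is described below. MSTRG.32453 held 3 transcripts and MSTRG.30500 held 2. The scale was set on single-transcript entries, so for these the estimate need not be the exonic share of the span. MSTRG.30500 (chr6:141674674-142030439, minus strand) spanned 355766 bases with an exonic length of 3868 bases, and its level was 8.88 and 9.22 CPM in DMSO and 8.17 and 7.53 CPM in SF1-8. Both SF1-8 libraries were below both DMSO libraries here, but the difference did not pass the test (log2 fold change -0.21 ± 0.16 SE, unadjusted p = 0.255, edgeR). MSTRG.18098 on chr19 spanned 140615 bases with only 391 exonic bases, and its count was 0 and 47 in DMSO and 51 and 45 in SF1-8. The DMSO libraries thus differed from each other more than either SF1-8 library differed from DMSO 2.

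By position, the unnamed entries lay almost wholly outside the GENCODE version 29 annotation: 10 of 2095 overlapped one of its genes. Of the 29596 Ensembl identifiers, 28227 were in that version. The entries were taken for having no name, so the low overlap may follow from the rule itself. RefSeq named more of them, with 526 (25.1%) over a RefSeq gene, and 1569 over none. These were 250 entries over a long noncoding RNA, 145 over a protein-coding gene, 89 over a transfer RNA gene, 33 over a transcribed or other pseudogene, 6 over a small nuclear RNA and 3 over other classes, where an entry was given 1 class. The nearest named entry was a median of 4952 bases away, and 1049 unnamed entries (50.1%) lay within 5 kb of one, 116 of them touching or overlapping it. At the other end, 112 were more than 100 kb from any named entry.

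Where the nearest named entry was within 5 kb and had a strand, 198 unnamed entries had a strand of their own and 747 had none. Of the former, 98 were on the strand of the neighbor, with 56 upstream of it, 20 downstream and 22 overlapping. The other 100 were on the opposite strand, with 48 upstream, 24 downstream and 28 overlapping. Entries without strand were 368 upstream, 313 downstream and 66 overlapping.

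Chromosome 22 held the most unnamed entries per megabase, 1.85, followed by chromosome 19 with 1.5 and chromosome 20 with 1.24. Chromosome 18 held 0.237 and chromosome Y, with 1 entry, 0.0176. Length was taken up to the end of the last entry on each chromosome. Entries were clustered, since the 10 densest windows of 1 Mb, of 847 windows with any, held 269 of them (12.8%). A window at 49 to 50 Mb of chromosome 4, beside the centromere, held 36 entries. The windows from 26 to 29 Mb of chromosome 6, which contain the histone and transfer RNA gene cluster, held 22, 28 and 36 entries. Other dense windows lay at 12 Mb of chromosome 22, with 34 entries and the start of 1 named entry, and at 29 and 30 Mb of chromosome 20, with 24 and 23.

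**Figure D2:**
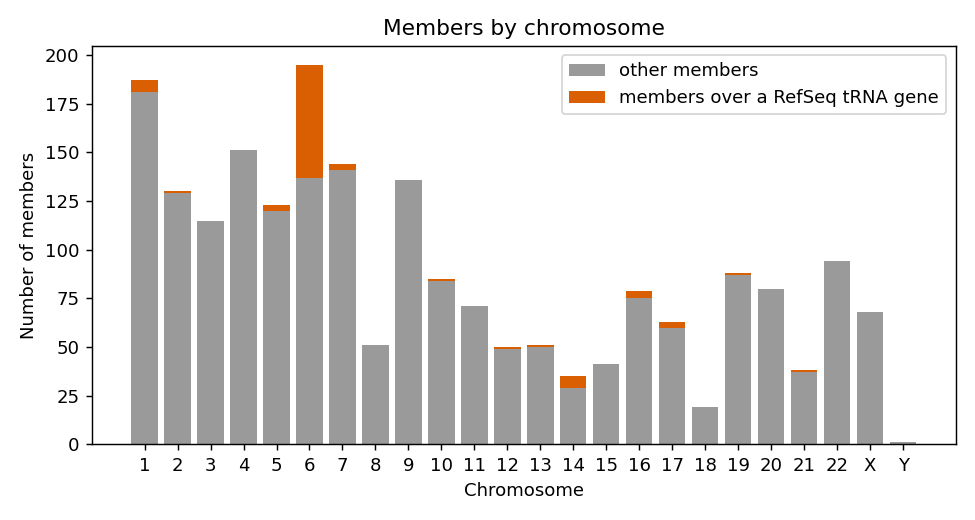
Number of unnamed assembled entries on each chromosome, with those over a RefSeq transfer RNA gene in orange. Chromosome 6 holds the most, 195, of which 58 lie over a transfer RNA gene.

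Together the unnamed entries held 0.421% and 0.365% of the counts in DMSO 1 and DMSO 2, and 0.36% and 0.358% in SF1-8 1 and SF1-8 2. DMSO 1 was the high library, and DMSO 2 was close to both SF1-8 libraries. The group means were 0.393% ± 0.0394 (SD, n = 2) and 0.359% ± 0.000868 (SD, n = 2), with p = 0.333 by an exact two-sided permutation test, the smallest p that 2 against 2 libraries allow. Without DMSO 1 the difference shrank from -0.0342 to -0.0063 percentage points.

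Only 12 of the 23180 entries tested passed an adjusted p of 0.05 by edgeR's quasi-likelihood test (0.0518%, 4 higher and 8 lower with SF1-8), and 0 of the 1297 compared unnamed entries did. The smallest adjusted p among them was 0.226. At an unadjusted p under 0.05 there were 44 lower and 17 higher unnamed entries, 3.39% and 1.31%, beside 2.84% and 1.26% of all entries tested. DESeq2 called 3 unnamed entries at an adjusted p under 0.05 (0.231%), beside 0.725% of all entries. Both SF1-8 libraries lay below both DMSO libraries in 292 unnamed entries (22.5%, against 21.2% of all entries) and above them in 161 (12.4%, against 12.3%). By limma on log2(FPKM + 0.1), 131 unnamed entries (10.1%) had an unadjusted p under 0.05, against 5.21% of all entries, and 0 entries of either kind passed the adjusted threshold.

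The median log2 fold change was -0.17 over the compared unnamed entries and -0.049 over all entries tested. Without DMSO 1 these medians were 0.012 and 0.0046, and 660 of the 1297 unnamed entries were then higher with SF1-8. DMSO 1 held the highest CPM in 604 of the 1297 (46.6%), against 41.8% of all entries tested. For named assembled entries without strand, the median log2 fold change was -0.34 with all libraries and -0.0051 without DMSO 1.

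**Figure D3:**
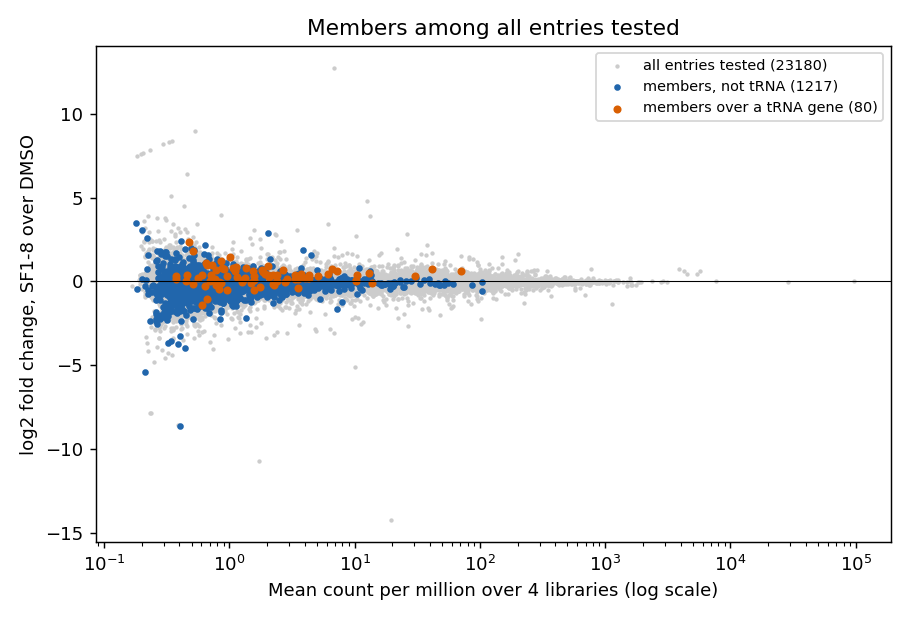
The log2 fold change of SF1-8 over DMSO (edgeR) against mean CPM over the 4 libraries (log scale), for all 23180 entries tested in grey, the 1217 compared unnamed entries away from transfer RNA genes in blue and the 80 over them in orange. Unnamed entries lie mostly at low CPM, where fold changes are widest.

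Over all 2095 entries, the median level was highest in DMSO 1 in each span class under 5000 bases. For spans from 200 to under 300 bases the median level was 0.417 CPM in DMSO 1 against 0.140 CPM in DMSO 2, 0.118 CPM in SF1-8 1 and 0.140 CPM in SF1-8 2. Named assembled entries of that span showed a like gap, with 0.395, 0.109, 0.0888 and 0.0933 CPM in the same order. For unnamed entries from 1000 to under 5000 bases the medians were 3.22, 2.52, 2.40 and 2.53 CPM in the same order. For those of 5000 bases and over they were 7.10, 6.29, 6.93 and 7.25 CPM, without such a gap. Among the compared entries alone the order by span was another: DMSO 1 was the highest library for 44.5% of those under 300 bases and for 54.0% of those from 1000 to under 5000 bases. Particular counts also recurred in DMSO 1: the commonest count among the unnamed entries there was 19, in 156 entries, followed by 23, in 137, and 273 of these 293 entries were under 300 bases. In each of the other libraries the commonest count above 0 was 4, in 72 to 94 entries. Over all entries together the commonest count above 0 was 4 in every library, DMSO 1 included. The recurrence of 19 was not particular to unnamed entries. Among named assembled entries in DMSO 1, 19 was the second commonest count, in 523 entries, after 4, in 794. In the other libraries their second commonest count was 3 or 8.

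**Figure D4:**
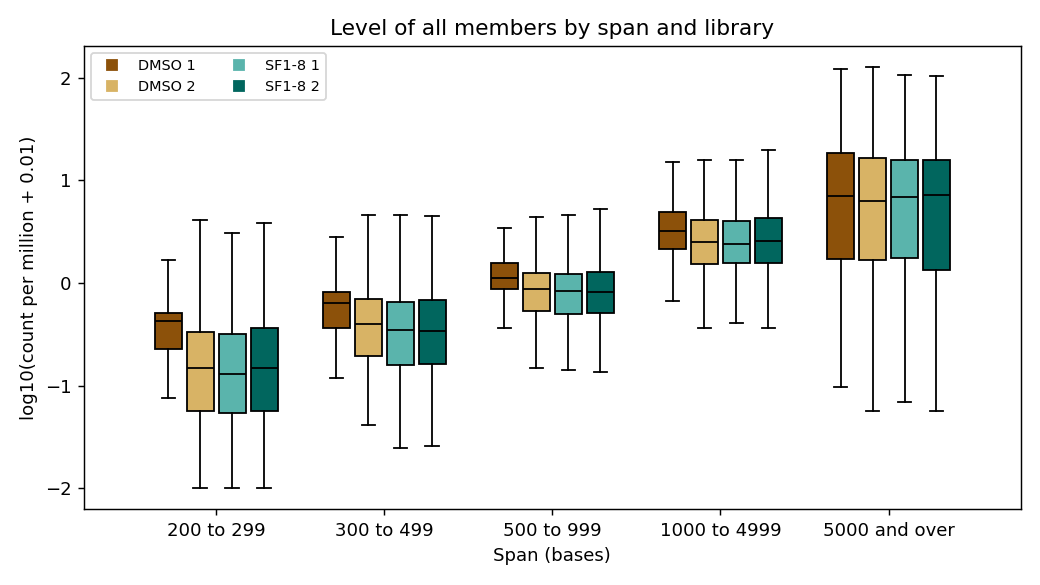
Level of all 2095 unnamed entries as log10(CPM + 0.01), in boxes (median and quartiles, whiskers to 1.5 interquartile ranges, no outliers drawn) by span class and library. DMSO 1 has the highest median in each class under 5000 bases, most clearly in the shortest, and the libraries draw level at 5000 bases and over.

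Of the 798 entries not compared, 162 reached a count of 20 in no library and 636 in 1 library alone, which was DMSO 1 for 351, DMSO 2 for 104, SF1-8 1 for 74 and SF1-8 2 for 107. At the edge of the rule, 31 entries had a second-highest count of exactly 20 and 54 of 19. MSTRG.22936 was just inside with counts of 0, 30, 20 and 6 in DMSO 1, DMSO 2, SF1-8 1 and SF1-8 2, and MSTRG.25942 just outside with 19, 19, 0 and 1. A count above 0 in a single library was found for 73 entries, 50 of them in DMSO 1.

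The entry with the highest mean CPM was MSTRG.32453 (chr7:145784912-145963615, plus strand), over the noncoding locus LOC124901765 and 86.4 kb from the nearest named entry. It measured 121.4 and 127.3 CPM in DMSO and 106 and 59.4 CPM in SF1-8. Both SF1-8 values were below both DMSO values, yet the SF1-8 libraries differed widely from each other, and the log2 fold change of -0.58 ± 0.27 (SE) had an unadjusted p of 0.0791 (edgeR). Leaving out SF1-8 2 brought it to -0.22, and leaving out SF1-8 1 to -1.07.

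Of the other entries of high mean CPM, MSTRG.19104 (chr19:57298493-57304304) lay 1 base from a named entry and gave 110 and 99.7 CPM in DMSO and 99.0 and 104 CPM in SF1-8. MSTRG.3159, 3899 bases from NBPF12 on chr1, gave 105 and 79.3 CPM in DMSO and 82.8 and 77.7 CPM in SF1-8, so that DMSO 1 alone was high. MSTRG.26193 on chr4, in the window beside the centromere, gave 67.0 and 62.1 CPM in DMSO and 56.9 and 58.0 CPM in SF1-8. NBPF12 belongs to a family of near-identical copies, and reads in such regions can be shared between copies, so its neighbor is uncertain.

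MSTRG.24794 (chr3) ranged from 53.9 to 58.3 CPM over the 4 libraries. MSTRG.4567 (chr10:5481211-5487770, minus strand) lay 513 bases from NET1, which encodes a guanine nucleotide exchange factor for RhoA, and ranged from 49.95 to 55.2 CPM. The unadjusted p was 0.344 for the former and 0.648 for the latter.

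The smallest p among unnamed entries, chosen after values had been seen, belonged to MSTRG.10192 (chr13:110827819-110832662, plus strand), over the noncoding locus LOC105370363. It measured 12.2 and 9.71 CPM in DMSO and 3.27 and 3.72 CPM in SF1-8. The groups were far apart and the spread within each was small, with a log2 fold change of -1.65 ± 0.21 (SE) and an unadjusted p of 0.000368, but the adjusted p was 0.226 by edgeR, against 8.52e-09 by DESeq2.

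A second unnamed entry, MSTRG.10191, overlapped it on the minus strand over 2491 bases. Its level was 4.55 and 0 CPM in DMSO and 6.11 and 7.37 CPM in SF1-8, so that it was higher in both SF1-8 libraries. Summed, the pair gave 16.7 and 9.71 CPM in DMSO and 9.39 and 11.1 CPM in SF1-8, so that the groups overlapped, and the log2 ratio of the group means was -0.36, against -1.62 for MSTRG.10192 alone computed the same way (after adding 0.1 CPM). The division of counts between the strands therefore differed between libraries at this locus. Why it differed was not tested.

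Such overlaps were found for 55 pairs of unnamed entries, 26 of them on opposite strands. In 16 pairs both members reached a count of 100 in some library, and in 4 of these 1 member was at 0 in at least 1 library. MSTRG.3444 (chr1:155568102-155571707, plus strand), lying within MSTRG.3443 on the minus strand, had counts of 340 and 437 in DMSO and 0 and 451 in SF1-8. With SF1-8 2 left out, it was the only unnamed entry to pass the adjusted threshold, and it then rested on that 0. MSTRG.35267 and MSTRG.35268, near the end of chromosome 9, had counts of 110, 0, 115 and 283 and of 0, 1008, 1063 and 778 in DMSO 1, DMSO 2, SF1-8 1 and SF1-8 2. Over the 4 libraries, 5 unnamed entries were at 0 in 1 library with at least 100 in each of the others. By the library at 0 (DMSO 1, DMSO 2, SF1-8 1 and SF1-8 2) they numbered 2, 2, 1 and 0. Over all entries of the table these numbers were 7, 3, 3 and 6.

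The largest differences downward at an unadjusted p under 0.05 were all at low counts. MSTRG.20532 (chr2:130675889-130676335, no strand) had 35 and 55 counts in DMSO and 0 and 0 in SF1-8, which is at least 17.8-fold lower against a floor of 3 counts per library (unadjusted p = 0.00154, adjusted p = 0.488 by edgeR, 0.000509 by DESeq2). MSTRG.20531, on the same chromosome near POTEJ, had 31 and 64 counts in DMSO and 7 and 0 in SF1-8. POTE genes are close copies of each other, so these counts are uncertain.

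MSTRG.26843 on chr4 had 36 and 42 counts in DMSO and 5 and 2 in SF1-8, with a log2 fold change of -3.72 ± 0.81 (SE) and adjusted p-values of 0.767 by edgeR and 0.0231 by DESeq2. MSTRG.12775 on chr15 had 23 and 21 counts in DMSO and 0 and 1 in SF1-8. MSTRG.20760, 4421 bases from the nearest named entry on chr2, had 24 and 44 counts in DMSO and 6 and 0 in SF1-8. MSTRG.24846 on chr3 had 41 and 24 counts in DMSO and 3 and 4 in SF1-8. In each of these, both SF1-8 libraries lay below both DMSO libraries, and edgeR's adjusted p was 0.767 or more. These entries, like MSTRG.20532 and MSTRG.20531, reached a count of 20 in the DMSO libraries alone. The filter thus fixed their order in advance, and that order is no support for a difference. Among compared unnamed entries, 41 reached that count in both DMSO libraries alone and 35 in both SF1-8 libraries alone.

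The largest differences upward were mostly at low counts too. MSTRG.11526 (chr15:22838140-22838348), 296 bases from the magnesium transporter gene NIPA2, had 2 and 1 counts in DMSO and 22 and 22 in SF1-8, with a log2 fold change of 3.47 ± 1.05 (SE) and an adjusted p of 0.998 (edgeR). MSTRG.22410 on chr21 had 28 and 24 counts in DMSO and 442 and 39 in SF1-8, and its log2 fold change of 2.87 went to 0.30 without SF1-8 1. A single library thus set that value. MSTRG.3616 on chr1 had 2 and 5 counts in DMSO and 21 and 29 in SF1-8. MSTRG.21351 had 4 and 11 in DMSO and 58 and 35 in SF1-8, MSTRG.4054 had 12 and 9 against 37 and 66, and MSTRG.29305, near the zinc finger gene ZKSCAN3, had 10 and 25 against 53 and 72. None passed the adjusted threshold. MSTRG.11526, MSTRG.3616, MSTRG.21351 and MSTRG.4054 reached the filter's count in the SF1-8 libraries alone. The filter thus largely set their order in advance, and that order is no support for a difference.

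Transfer RNA (tRNA) genes, transcribed by RNA polymerase III from promoter elements inside the gene, formed the largest group of unnamed entries over small RNA genes. Of 443 nuclear tRNA genes in RefSeq, 100 lay in unnamed entries, 183 in named entries and 160 in neither. They fell in 89 unnamed entries, 81 with 1 tRNA gene and 8 with several, of which 58 were on chromosome 6 and 79 had no strand. A mature tRNA is shorter than the shortest entry of 200 bases, so these entries extend past the gene. Their spans reached 18322 bases, and 5 were over 5000 bases. Overlap was taken over the whole span without regard to strand, so the level of an entry need not come from its tRNA gene. One tRNA gene falls inside a RefSeq promoter window and can be shown, TRI-AAT8-1 for isoleucine, of which entry MSTRG.29238 covers all but the outermost bases. Capitals mark GGTTCGA, at position 53 of its 74 bases, the start of the B box to which transcription factor TFIIIC binds.
TRI-AAT8-1, chr6:27668583-27668656, plus strand: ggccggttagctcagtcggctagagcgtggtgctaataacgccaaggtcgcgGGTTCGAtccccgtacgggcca

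MSTRG.29238 measured 0.769 and 1.65 CPM in DMSO and 1.89 and 1.87 CPM in SF1-8. DMSO 1 was low and the others close together. The summed level of all 89 entries was 243 and 349 CPM in DMSO and 397 and 378 CPM in SF1-8. The gap between the DMSO libraries (106 CPM) was larger than the gaps between DMSO 2 and the SF1-8 libraries (48.0 and 29.2 CPM). DMSO 1 was thus low over tRNA genes, whereas it was high in the rest of the unnamed entries, whose sum was 3967 and 3303 CPM in DMSO and 3198 and 3205 CPM in SF1-8.

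Of the 80 compared entries over tRNA genes, 62 had a higher level in SF1-8 and 18 a lower one. Their median log2 fold change was 0.33, and 5 had an unadjusted p under 0.05, all higher, where 40.7% of all entries tested were higher and 1.26% were higher at that p. None passed the adjusted threshold. DMSO 1 was the lowest library for 48 of the 80. Without it the median was 0.15, with 56 higher and 24 lower. The 50 on chromosome 6 between 26 and 29 Mb had a median of 0.28 and the 30 elsewhere one of 0.34, or 0.15 and 0.16 without DMSO 1. Under TMM scaling the median of the 80 was 0.36.

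MSTRG.29193 (chr6:27230401-27230662), over TRL-TAA4-1 for leucine, had the highest level per length of all unnamed entries, with 142 and 198 FPKM in DMSO and 273 and 253 FPKM in SF1-8. As CPM this was 47.1 and 65.1 against 88.6 and 83.3. The groups did not overlap, with a log2 fold change of 0.61 ± 0.17 (SE), an unadjusted p of 0.0129 and an adjusted p of 0.998 (edgeR), and without DMSO 1 the log2 fold change was 0.40. MSTRG.29240, over TRI-AAT2-1 for isoleucine, came next with 40.1 and 104 FPKM in DMSO and 131 and 113 FPKM in SF1-8, where DMSO 1 stood alone. MSTRG.29246, over TRQ-CTG6-1 for glutamine, had 52.9 and 86.0 FPKM in DMSO and 91.6 and 86.7 FPKM in SF1-8, and again only DMSO 1 was low.

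The other 4 at an unadjusted p under 0.05 were chosen after values had been seen. MSTRG.29324, over TRT-AGT3-1 for threonine, had 4.79 and 5.08 CPM in DMSO and 8.94 and 7.39 CPM in SF1-8. MSTRG.4028 on chr1, over the lysine genes TRK-TTT3-1 and TRK-TTT3-2, had 5.73 and 5.61 CPM in DMSO and 8.19 and 9.64 CPM in SF1-8. In both the DMSO libraries were close to each other, and the log2 fold changes were 0.73 ± 0.19 and 0.65 ± 0.18 (SE), with unadjusted p-values of 0.0115 and 0.0137 and an adjusted p of 0.998 each (edgeR). MSTRG.29322, over TRA-AGC7-1 for alanine, had 1.21 and 1.57 CPM against 3.05 and 2.32 CPM, and MSTRG.16600, over the methionine gene TRX-CAT1-8, had 0.637 and 0.435 CPM against 1.97 and 1.01 CPM. Not every tRNA entry was higher: MSTRG.29162, over TRK-CTT2-4, had 14.2 and 14.2 CPM in DMSO and 13.6 and 12.8 CPM in SF1-8.

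**Figure D5:**
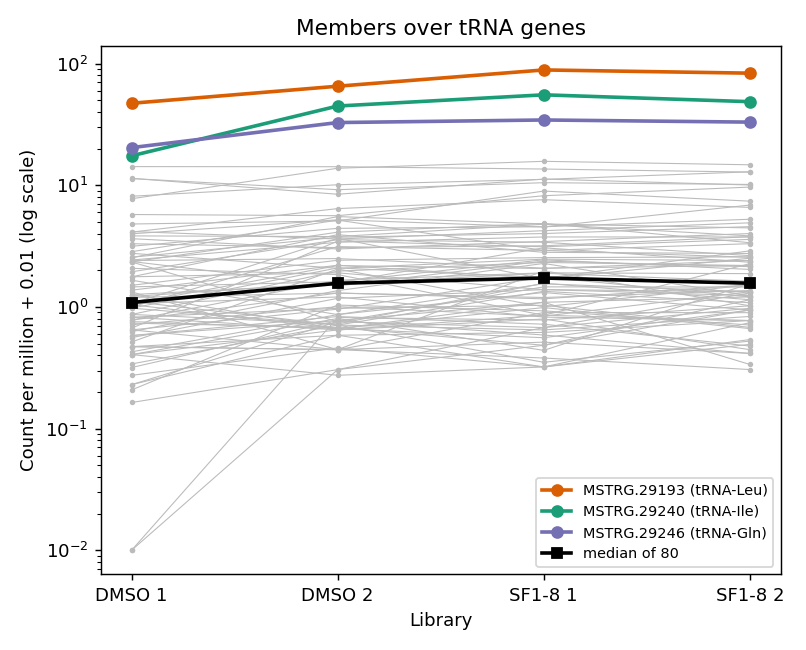
CPM + 0.01 (log scale) in each library for the 80 compared entries over tRNA genes, one grey line per entry, with the 3 entries of highest FPKM in color and the median in black. The colored entries are lowest in DMSO 1.

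Several tRNA entries had a count in 1 library alone. MSTRG.29171, over TRM-CAT5-1, had a count of 471 in DMSO 2 and 0 in the other libraries. MSTRG.29172, over TRA-AGC9-1, had 453 in SF1-8 1 and 0 elsewhere, and MSTRG.29174 had 360 in DMSO 2 and 0 elsewhere. These entries follow each other on chromosome 6 between 26701473 and 26771172 and do not overlap. Outside tRNA genes, MSTRG.9305 on chr12, on the strand opposite to MLXIP, had 1133 in DMSO 1 and 0 elsewhere, MSTRG.23794 had 216 in SF1-8 1 and 0 elsewhere, and MSTRG.27688 had 205 in SF1-8 2 and 0 elsewhere. These 6 were the entries with a count over 100 in a single library and 0 in the others.

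Beside these, 59.3% of all entries tested had a log2 fold change below 0 and 40.7% one above 0. In the window from 126000001 to 127000000 of chromosome 4, with 32 unnamed entries and 14 starts of named ones, the summed level was 158 and 142 CPM in DMSO and 116.4 and 121.2 CPM in SF1-8. Both SF1-8 libraries were lower. Of its 25 compared entries 21 were lower, 5 of them at an unadjusted p under 0.05 (2.84% of all entries tested). Their median log2 fold change was -0.60, or -0.37 without DMSO 1. MSTRG.26800, its largest and 22013 bases long, had 56.5 and 53.7 CPM in DMSO and 45.7 and 49.7 CPM in SF1-8, a log2 fold change of -0.21 ± 0.10 (SE) with an unadjusted p of 0.0875.

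Within the same window, MSTRG.26791 had 14.5 and 11.7 CPM in DMSO and 7.79 and 8.10 CPM in SF1-8, with a log2 fold change of -0.72 ± 0.18 (SE), an unadjusted p of 0.00801 and an adjusted p of 0.888 (edgeR). MSTRG.26798 had 26.4 and 28.7 CPM in DMSO and 21.6 and 22.8 CPM in SF1-8 (unadjusted p = 0.0422). MSTRG.26759, at the other end of the cluster, ranged from 20.2 to 21.8 CPM and had an unadjusted p of 0.653. Neighboring entries of 1 window were not treated as independent of each other.

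In the window at 38 Mb of chromosome 11, 9 of 10 compared entries were lower, and the sum was 15.5 and 9.21 CPM in DMSO and 6.41 and 8.29 CPM in SF1-8. DMSO 1 was high here as well, and without it 8 of the 10 were lower and the median log2 fold change went from -0.81 to -0.41. The window at 49 Mb of chromosome 4 had 18 of 33 lower with a median log2 fold change of -0.0096, and sums of 173 and 146 CPM in DMSO and 140 and 153 CPM in SF1-8. At 12 Mb of chromosome 22, 16 of 26 were lower, with sums of 62.6 and 71.1 CPM in DMSO and 63.3 and 54.9 CPM in SF1-8. In both of these windows the groups overlapped. At 30 Mb of chromosome 20, 10 of 17 were higher, with a median log2 fold change of 0.12 and sums of 34.03 and 30.6 CPM in DMSO and 31.4 and 31.7 CPM in SF1-8. At 29 Mb, 15 of 21 were lower.

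The log2 fold change of an unnamed entry said little about that of its neighbor. Over 521 compared entries within 5 kb of a tested named entry with a strand, 285 (54.7%) had the sign of the neighbor, with Pearson's r of -0.042 and Spearman's rho of -0.00456. For the 103 with the nearest named entry on the same strand within 5 kb, 59 (57.3%) shared its sign, with r of -0.12 and rho of 0.013. These values are across entries that share the same 4 libraries, and are given as a description. The median level was 1.05 CPM for the 521 entries and 26.8 CPM for their neighbors.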

How the data were processed

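RNA was sequenced from 4 libraries after ribosomal RNA depletion (TruSeq total RNA, per the labels). The authors deposited 1 table with an FPKM value and a count per entry and library. The deposited FPKM values are scaled by the authors to entry length and library depth, with 0.0001 in place of 0. The deposited counts are whole numbers, unnormalized, and were treated as estimated counts, so counting error is not given. The submitters' processing notes name cutadapt, FastQC, Bowtie2, HISAT2, StringTie and build hg38; versions and strand setting are not given in the sources used here.

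Library size was the total count. Entries with at least 20 counts in 2 libraries were tested by edgeR's quasi-likelihood test (edgeR 4.0.16, R 4.3.3) with Benjamini-Hochberg adjustment over all of them. The script was tested on simulated data. Alternatives used TMM, DESeq2 1.42.0, limma 3.58.1 on log2(FPKM + pseudocount), other filters, counts divided by 4, totals without ribosomal RNA entries, the replicate number as a block, and each library left out. Positions were compared with GENCODE version 29 and RefSeq. Exonic length was taken from count over FPKM, scaled in each library on single-transcript unnamed entries without strand. No genome sequence was used here, so base composition is given only for RefSeq promoter windows.

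The members and lists were chosen with earlier results of these data known. Named entries were those passing the adjusted threshold, the 8 of highest mean CPM, the 6 largest differences in each direction at an unadjusted p under 0.05, the 3 longest and the 3 of highest FPKM. Others are said to be chosen after values were seen, and so were the single-library, overlapping and window entries.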

Additional observations from a re-analysis of the deposited data

How the results depend on the processing

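Over all entries, 12 were called. DESeq2 called 168, the fit with no filter 37 of 39248 tested, and the replicate block, limma with 0.1 added and limma with 1 added each called 0. Leaving out 1 library gave 0 (without DMSO 1) to 17 (without SF1-8 1). Unnamed entries called were 0, but 3 by DESeq2, and 0 to 1 with a library left out. At an unadjusted p under 0.05 there were 61 unnamed entries (4.7%, against 4.1% of all entries tested). There were 133 with no filter (6.36% against 4.1%), 131 and 136 by limma with 0.1 and 1 added (10.1% against 5.21% and 10.5% against 5.45%), and 39 to 147 with a library left out (39 without SF1-8 2, 3.01% against 3.7%, and 147 without DMSO 2, 11.3% against 8.05%). Their median log2 fold change of -0.17 was -0.40 with no filter, and with a library left out ranged from -0.26 (without DMSO 2) to 0.012 (without DMSO 1), which turned its direction. Of 312 values of 24 named entries under 13 alternatives, all but 4 kept their direction. The alternatives reuse the same libraries, so this tally is no independent support for a difference. The largest falls, and MSTRG.11526, MSTRG.3616, MSTRG.21351 and MSTRG.4054 among the rises, reached the filter's count in the libraries of a single condition. Their direction was thus largely set in advance and could hardly turn. The 4 that turned were all without DMSO 1. With a library left out, MSTRG.19104 ranged from -0.12 to 0.026, MSTRG.3159 from -0.39 to 0.0165, MSTRG.4567 from -0.0082 to 0.11 and MSTRG.18098 from -0.0049 to 8.43. The causes of these changes were not tested.

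The median span was 351 bases over all 2095 entries. The median exonic length was 379 bases over those with an estimate, 305 with strand and 1628 without, so the sets differ. The median distance to a named entry was 4952 bases over all entries. For the 308 entries with strand, the distance to a named entry on the same strand had a median of 8078.5 bases. With the replicate block, 53 unnamed entries were at an unadjusted p under 0.05 and the median was -0.13. The labels do not say whether same-numbered libraries were paired. Their deviations from the group means correlated at 0.0161 over all entries tested, which cannot show whether they shared a culture or batch. Direction by unadjusted p also shifted, from 44 lower and 17 higher to 27 lower and 47 higher without DMSO 1, as it did over all entries, from 658 lower and 292 higher to 468 lower and 646 higher. The 2 libraries per group and the unknown counting error limit what low entries can show.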
